A study of Mus musculus with 6 samples.

Results

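The Rab GTPases are small switch proteins, and their genes were followed across 6 arrays of mouse cells. Members were taken by symbol alone: every probe set annotated to 1 gene whose symbol is Rab, a number and at most 1 letter. The rule found 132 of 45101 probe sets, for 59 of 18193 genes. Names of effectors or exchange factors were not members, and no measured value entered the rule.

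The cells were SYF cells, a mouse embryonic fibroblast line that lacks the kinases Src, Yes and Fyn, stably transfected with 1 of 2 Src mutants. Both mutants carry Y527F, a change of the tail residue whose phosphorylation holds Src inactive. R388A disables the kinase in a way that imidazole can rescue, and D386N disables it in a way that imidazole does not. Both lines were kept under hygromycin B and starved of serum overnight, then harvested at 0 h without imidazole or after 5 mM imidazole for 1 h or 12 h. The 6 groups are therefore R388A/Y527F at 0, 1 and 12 h and D386N/Y527F at 0, 1 and 12 h, with 1 Affymetrix Murine Genome 430 2.0 array each and no replicate. Whether a line was 1 clone or a pool is not given in the sources used here, nor is the promoter that drives Src. No 12 h sample without imidazole was analysed here.

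A Rab protein cycles between a GTP-bound form, which sits on the membrane of 1 compartment and recruits effectors there, and a GDP-bound form held in the cytosol. Guanine nucleotide exchange factors switch it on, GTPase-activating proteins switch it off, and an escort protein with geranylgeranyl transferase adds the lipid anchor. Different Rabs mark the ER and Golgi, early and recycling endosomes, late endosomes and lysosomes, or secretory granules, and fibroblasts use them to move integrins, growth factor receptors and matrix proteins.

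Signals are linear GCOS intensities that were scaled to a common level on every array. Values under a floor of 20.4, which is the 40th percentile over the 6 arrays, were raised to it before taking log2. A second deposited summary of the same arrays, with its own floor of 11.3, is given beside the GCOS values. Signals of different probe sets were not compared, because probe sets differ in how brightly they hybridise. The number of genes above the floor was between 12207 and 12712 per array, and the 3' to 5' signal ratio of Gapdh between 0.76 and 0.82. The probe set used for Src gave 19.1 to 66.9 in R388A/Y527F and 58.4 to 72.7 in D386N/Y527F, and whether it reads the introduced Src is not known, so it does not check the labels. Of 9 fibroblast markers all were above the floor on at least 2 arrays.

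Most of the family was detected. Of the 59 Rab genes, 44 were above the floor on every array and 50 on at least 2 arrays, and those 50 (84.7%, against 74.4% of all genes) entered the fits. The 9 that did not were Rab3b, Rab3c, Rab9b, Rab12, Rab19, Rab25, Rab26, Rab39 and Rab44. Rab25, an epithelial Rab of recycling endosomes, gave 5.7 to 10.9 on the 6 arrays, and Rab26, a Rab of secretory granules, gave 2.2 to 3.7. Rab3b, a close relative of the synaptic vesicle Rab3a, gave 7.3 to 12.7 in the GCOS signal, but 36.1 to 44.0 in the second summary, where all 6 arrays were above that summary's floor. For Rab3c, another relative, the probe set used gave at most 9.8 and the highest value on any of its 5 probe sets was 15.0. For Rab12, a Rab of recycling endosomes and lysosomes, the probe set used gave 1.6 to 7.3, while its other probe set gave 321.7 to 382.5. Rab12 was therefore detected, although the probe set taken by rule did not show it. Of the 59 genes, 38 had more than 1 probe set, with at most 7 (Rab2a and Rab14).

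The difference between the lines asks how the rescuable and the non-rescuable cells differed in Rab expression over all 3 times. In the limma fit with line and time, 11 of the 50 Rab genes differed, or 22%, beside 20.1% of all 13541 genes tested. At an unadjusted p under 0.05 there were 20, or 40%, beside 32.5% of all genes. Of the 11, 2 were higher and 9 lower in R388A/Y527F, where 9.24% of all genes were higher and 10.9% lower. The share of members called was thus near that of all genes. The median log2 difference was -0.08 over the 50 Rab genes and -0.02 over all genes. On the linear signal, the 3 arrays of 1 line lay wholly above or below those of the other for 22 of the 50, and for 35.3% of all genes. Each line has 1 array per time, so the 3 times stand in for replicates and the error is how unevenly the times behaved. Effects of the mutation cannot be told apart from those of how each population arose and was handled, and in bulk RNA fewer cells of a type and less RNA per cell cannot be told apart either.

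Among Rabs of regulated secretion, 2 of 5 tested genes were lower in R388A/Y527F and 0 were higher, beside 10.9% and 9.24% of all genes. With so few genes per group, such counts are not read as traits of a group. Rab3d, which sits on secretory granules of exocrine and other secretory cells, had signals of 84.1, 76.7 and 67.7 on the R388A/Y527F arrays at 0, 1 and 12 h, against 160.9, 177.7 and 152.7 on those of D386N/Y527F. Every R388A/Y527F array lay below every D386N/Y527F array, and the log2 difference was -1.11 (SE 0.16, adjusted p = 0.00197, limma), the lowest of the family. The other 3 Rab3d probe sets, each fitted by itself, were also lower, by -0.70 to -1.14, with adjusted p of at most 0.0145 (limma), though the dimmest of them gave 19.8 to 20.5 on all 6 arrays in the second summary. Rab3a, the synaptic vesicle Rab, gave 103.5, 79.0 and 69.3 in R388A/Y527F, against 136.5, 162.8 and 100.8 in D386N/Y527F. The R388A/Y527F 0 h array lay above the D386N/Y527F 12 h array, so these groups overlapped, and the difference was -0.66 (SE 0.19, adjusted p = 0.0367, limma). In the second summary Rab3a stood at -0.25 (adjusted p = 0.172, limma), and its other probe set, of a kind that can hybridise to several genes, stood at -0.07. Rab27b and Rab27a, which dock lysosome-related and secretory vesicles, stood at -0.30 and -0.46 without passing the test.

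Late endosomal and lysosomal Rabs went both ways, with 1 of 7 tested genes higher and 2 lower, beside 9.24% and 10.9% of all genes. Rab38, which with Rab32 delivers cargo to melanosomes and other lysosome-related organelles, gave 104.1, 92.8 and 80.0 in R388A/Y527F, against 36.1, 37.1 and 44.1 in D386N/Y527F. The lines did not overlap, and the log2 difference of 1.24 (SE 0.23, adjusted p = 0.0056, limma) was the highest of the family. The second Rab38 probe set, of a kind that can hybridise to several genes, stood at 0.69 (adjusted p = 0.0187, limma). Rab32 itself stood at 0.16 (adjusted p = 0.6, limma). Rab7, the Rab of late endosomes and lysosomes, gave 1643, 1803 and 2018 in R388A/Y527F, against 2026, 2153 and 2323 in D386N/Y527F. At each time it was lower in R388A/Y527F, by a log2 difference of -0.25 (SE 0.08, adjusted p = 0.0484, limma), although its 12 h value there lay close to the 0 h value of the other line. Rab24, which is linked to autophagy, gave 524.0, 568.1 and 564.4 against 644.7, 635.3 and 716.2, a log2 difference of -0.27 (SE 0.08, adjusted p = 0.0354, limma) with no overlap.

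Rabs of recycling and of transport to the cell surface included 3 of 10 tested genes lower in R388A/Y527F and 0 higher. The shares of all genes were 10.9% lower and 9.24% higher. Rab13, a Rab of cell junctions and surface delivery, gave 553.4, 562.6 and 598.9 in R388A/Y527F, against 776.4, 753.2 and 828.4 in D386N/Y527F. Rab8b, which carries vesicles from the Golgi and recycling endosomes to the plasma membrane, gave 791.1, 760.3 and 759.2 against 1068, 1086 and 1019. For both genes the lines did not overlap, and each differed by -0.46 on the log2 scale (SE 0.07, adjusted p = 0.00248 for each, limma). Rab15, a Rab of recycling endosomes studied mainly in neurons, gave 141.6, 164.8 and 157.2 against 231.3, 273.5 and 217.8, a log2 difference of -0.64 (SE 0.12, adjusted p = 0.00571, limma). The close paralogue of Rab8b, Rab8a, stood at 0.23 (adjusted p = 0.0944, limma), but at 7.5e-05 in the second summary. Rab10 and Rab35 stood at -0.14 each.

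Of the remaining groups, 1 of 14 tested ER and Golgi genes, 1 of 9 early endosomal genes and 1 of 5 others passed the test. These counts stand beside 20.1% of all genes. Rab1b, which acts in ER to Golgi transport, gave 908.2, 998.1 and 866.8 in R388A/Y527F, against 1281, 1196 and 1182 in D386N/Y527F, a log2 difference of -0.40 (SE 0.08, adjusted p = 0.00713, limma). Its paralogue Rab1a stood at 0.24 (adjusted p = 0.103, limma), on the other side of zero. Rab31, which moves cargo between the trans-Golgi network and endosomes, gave 667.0, 691.6 and 765.3 against 531.5, 539.3 and 612.6, and was higher by 0.34 (SE 0.07, adjusted p = 0.0104, limma). Rab40b, a Rab with a SOCS box that joins a ubiquitin ligase, gave 73.4, 69.9 and 54.3 against 114.2, 115.1 and 91.7, and differed by -0.70 (SE 0.18, adjusted p = 0.0269, limma). None of these 3 genes overlapped between the lines, as was so for 35.3% of all genes. Rab5a, Rab5b and Rab5c, the Rabs of early endosome fusion, stood at 0.22, 0.08 and -0.21 and did not pass the test.

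**Figure D1:**
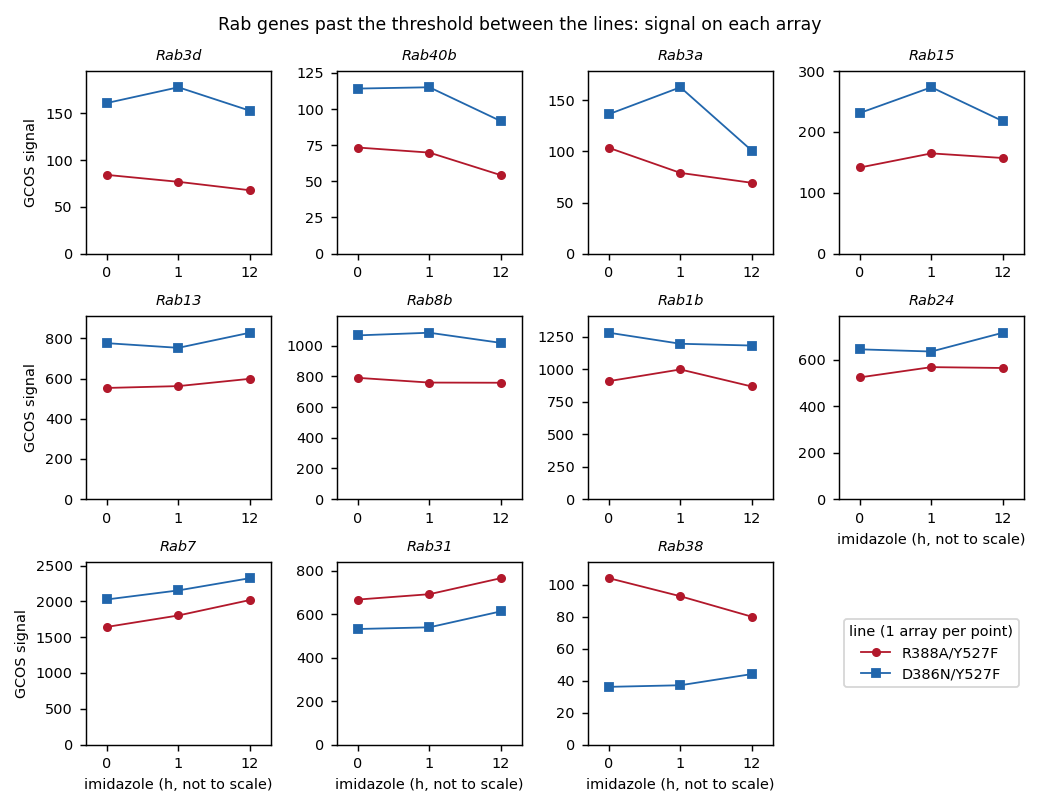
GCOS signal (linear, from 0) on each of the 6 arrays for the 11 Rab genes that passed the test between the lines, at 0, 1 and 12 h of imidazole (evenly spaced, not to scale), with 1 array per point and no error bars. Circles are R388A/Y527F and squares D386N/Y527F. Rab38 and Rab31 are higher in R388A/Y527F at every time and the other 9 genes lower, and the arrays of the lines overlap for Rab3a alone. The genes were picked by the test on these same arrays, so this adds no evidence, and 35.3% of all genes tested do not overlap.

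These calls rest on all 3 times. Without the 0 h arrays Rab3d, Rab8b and Rab13 passed the test, and without the 1 h or the 12 h arrays 0 Rab genes did, while the share of all genes called fell from 20.1% to 11.1%, 3.62% and 1.96%. Without a trend in the variance prior 4 Rab genes passed (Rab3d, Rab15, Rab38 and Rab40b), or 4 of 50 beside 7.24% of all genes. When all probe sets of a gene were averaged, Rab7 (-0.19), Rab8b (-0.20), Rab24 (-0.23) and Rab40b (-0.35) did not pass, nor did Rab7 and Rab24 when every probe set was fitted by itself. The other probe set of Rab40b was above the floor on 0 arrays and that of Rab8b on 1. Averaging in values raised to the floor pulled both differences toward zero, so it does not check these genes. Rab38 stood at 0.74 with the floor at the 60th percentile, Rab1b at -0.65 in the second summary and Rab3d at -0.70 with its brightest probe set, and all 3 passed there.

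Single markers of cell types also differed between the lines, where 20.1% of all genes did. Of 4 macrophage and leukocyte markers and 2 endothelial markers tested 0 differed in limma. Of 9 fibroblast markers 2 were higher (Fn1 at 0.66, Pdgfra at 0.52) and 3 lower (Thy1 at -1.84, Pdgfrb at -1.39, Col1a2 at -0.31) in R388A/Y527F, and their summed signal was 24808 to 28308 against 23468 to 25867. Of the epithelial markers Krt8 (0.94) was the 1 higher of 4 tested, whose median was -0.07. Their sum was 187.9 to 289.9 against 149.8 to 199.1, with Krt19 under the floor on all arrays. Of the neural markers Map2 (0.93) was the 1 higher of 7, with a sum of 467.8 to 545.7 against 332.8 to 402.9 and Snap25 under the floor. When probe sets were averaged, Map2 (0.38) and Pdgfra (0.38) did not pass. Of 5 melanocyte markers tested 0 differed in limma, and Tyrp1 and Mlana lay under the floor on all arrays. The second summary had Mitf, a transcription factor that melanocytes and other cells express, higher at 0.73 (adjusted p = 0.0301, limma), the 1 of 3 melanocyte markers tested there, and Map2 and Syt1 as the 2 higher of 6 neural markers. The part of these differences in the Rab results was not tested.

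In the second summary 20 of 47 tested Rab genes passed between the lines in limma (42.6%), beside 33.7% of all 12213 genes. Of these, 7 were higher, beside 14% of all genes, and 13 lower, beside 19.7%, and 25 were under an unadjusted p of 0.05, beside 43.9%. Of the 11 genes above, 10 passed there in the same direction, with Rab3a the exception, and of 45 Rab genes tested in both summaries those 10 compare with 21.7% of all genes. The 10 further genes were Rab1a, Rab2a, Rab6a, Rab6b and Rab28 on the higher side and Rab11a, Rab11b, Rab27b, Rab29 and Rab43 on the lower side. Rab6b, the neuronal form of the Golgi Rab6, had the largest difference among these, at 1.12 (adjusted p = 0.00547, limma). In the second summary Rab6b gave 120.0, 112.1 and 94.9 in R388A/Y527F, against 48.3, 42.1 and 60.9 in D386N/Y527F. In the GCOS signal its probe set gave 114.2, 141.5 and 108.4 against 90.8, 66.9 and 111.1, which overlap, and a log2 difference of 0.46 (adjusted p = 0.201, limma).

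**Figure D2:**
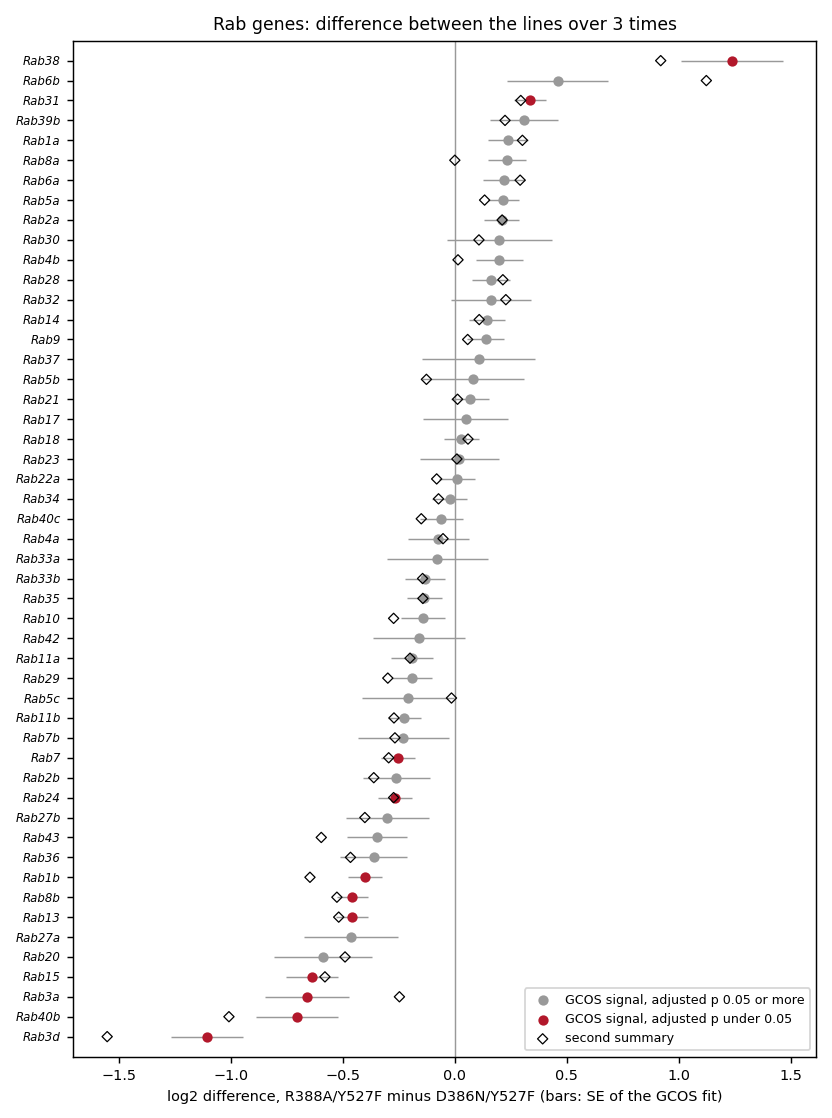
Log2 difference between the lines over the 3 times, R388A/Y527F minus D386N/Y527F, for the 50 Rab genes tested, in order of size. Filled circles are the GCOS signal with bars for the SE of the limma fit, red where the adjusted p was under 0.05, and open diamonds are the second summary where it was tested. The circles run from -1.11 (Rab3d) to 1.24 (Rab38), and the 2 summaries lie furthest apart for Rab6b.

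Other probe sets of the family gave further evidence on single genes. With every probe set fitted by itself, 20 of 111 Rab probe sets passed the limma test for line, of which 10 were higher and 10 lower, beside 16.4% of 25055 probe sets in all. Of the 11 genes that differed between the lines, 6 had another probe set above the floor, and all 8 such probe sets had the sign of the one used. For Rab6b, 2 other probe sets stood at 1.23 and 1.11 (adjusted p = 0.0173 and 0.009, limma), the latter of a less specific kind. For Rab6a, the ubiquitous Golgi form, 2 others stood at 0.45 and 0.67 (adjusted p = 0.0052 and 0.00567, limma). The one at 0.67 is of a kind that can hybridise to several genes. A second probe set of Rab2a, a Golgi Rab, gave 1215, 1258 and 1247 in R388A/Y527F, against 771.1, 869.2 and 758.9 in D386N/Y527F, a difference of 0.63 (adjusted p = 0.00104, limma). The Rab2a probe set taken by rule stood at 0.21 (adjusted p = 0.0978, limma), and 4 further ones between -0.16 and 0.46 and a cross-hybridising one at 0.43 did not pass. Second probe sets of Rab1a (0.35) and Rab28 (0.38) passed where those used did not.

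**Figure D3:**
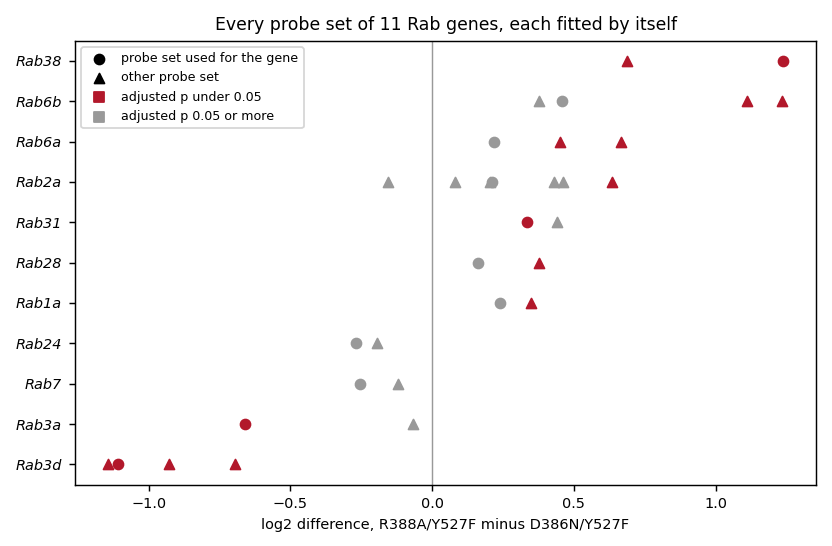
Log2 difference between the lines for every tested probe set, each fitted by itself, of 11 Rab genes with several tested probe sets, chosen because the gene passed in the fit of genes or another of its probe sets passed when fitted by itself. Circles are the probe sets used for the genes, triangles the others, and red marks an adjusted p under 0.05. All 4 Rab3d probe sets lie below zero, from -0.70 to -1.14, and all 4 Rab6b probe sets above it.

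Comparisons of single arrays carry no test, and a gene counted as different at 2-fold or more with the brighter array above the floor. Between the lines, 1 Rab gene was that different at 0 h, 4 at 1 h and 1 at 12 h, beside 5.45%, 5.97% and 6.31% of all genes. The second summary gave 4, 3 and 1, beside 4.32%, 4.58% and 4.5%. Rab38 was 2.88-fold higher in R388A/Y527F at 0 h, and at 1 h Rab38 and Rab6b were higher and Rab3d and Rab3a lower. At 12 h Rab3d was 2.26-fold lower, and with its brightest probe set it fell short of 2-fold at 1 h (-0.85 on the log2 scale) and 12 h (-0.77). Both summaries passed Rab38 at 0 h, Rab3d at 1 h and 12 h, and Rab6b at 1 h, beside 3.02%, 3.14% and 3.32% of all genes at 0, 1 and 12 h.

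The comparison of 1 h with 0 h asks for an early response to imidazole or to the rescued kinase. In limma 0 of 50 Rab genes changed in common in both lines, as did 0 of all genes (0%), and at an unadjusted p under 0.05 there was 1 Rab gene, beside 3.92% of all genes. The corresponding counts in the second summary were 0 (0% of all genes) and 2, beside 5.07%. That gene was Rab11a, the main Rab of recycling endosomes, at -0.30 on the log2 scale (adjusted p = 1, limma). Its signal was 454.7 at 0 h and 329.6 at 1 h in R388A/Y527F, while D386N/Y527F gave 482.0 and 438.8. Its other probe set gave 950.7 and 962.8, then 1093 and 1047, and so moved little in either line. Over the 50 genes the common change ran from -0.50 (Rab30, a Golgi Rab) to 0.32 (Rab5b). Within a line 0 Rab genes reached 2-fold at 1 h in either summary, beside 2.01% of all genes in R388A/Y527F and 2.26% in D386N/Y527F in the GCOS signal, 0.0737% and 0.0818% in the second summary and 0% and 0.027% in both. Of 48 Rab genes with a change in both lines, 19 went the same way (39.6%, against 47.1% of all genes). A single array per group gives no error for a change within 1 line.

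At 12 h the largest change in the family was that of Rab20, a Rab of early endosomes and phagosomes. In R388A/Y527F its signal was 15.7, 15.3 and 50.5 at 0, 1 and 12 h, and in D386N/Y527F 31.8, 35.7 and 62.9. The 12 h array was the highest in both lines, and the R388A/Y527F arrays at 0 h and 1 h lay under the floor. With the 0 h value raised to the floor, the 12 h GCOS signal in R388A/Y527F was 2.48-fold that at 0 h. In D386N/Y527F it was 1.98-fold, and both ratios rest on single arrays. The second summary gave 19.4, 32.6 and 39.5 in R388A/Y527F, with most of the difference already present at 1 h, and 36.7, 36.9 and 51.2 in D386N/Y527F. Its log2 changes at 12 h were 1.02 and 0.48. The common change at 12 h in limma was 1.15 (SE 0.27, adjusted p = 0.254) and 0.75 in the second summary (adjusted p = 0.236), so the test was not passed. With the floor at the 60th percentile, 55.0, both R388A/Y527F arrays lay at the floor. Rab20 has 1 probe set on this array, so there is no second reading of it.

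The promoter of Rab20 is shown because this gene had the largest 12 h value, and that of Rab3d because it had the lowest line difference with all probe sets alike. Both are the 250 bases before and 50 after the gene start, from RefSeq on build GRCm38.p6. Rab20 lies on the minus strand at chr8:11478591-11478890 and Rab3d on the minus strand at chr9:21918134-21918433. Capitals mark matches to CACGTG, the E-box that basic helix-loop-helix factors such as TFEB, MITF, MYC and USF can bind.
Rab20: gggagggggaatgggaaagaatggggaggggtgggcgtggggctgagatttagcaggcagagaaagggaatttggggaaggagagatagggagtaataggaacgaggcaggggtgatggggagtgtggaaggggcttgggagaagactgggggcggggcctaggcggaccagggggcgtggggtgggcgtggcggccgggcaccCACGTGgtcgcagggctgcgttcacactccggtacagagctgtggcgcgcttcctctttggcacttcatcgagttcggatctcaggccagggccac
Rab3d: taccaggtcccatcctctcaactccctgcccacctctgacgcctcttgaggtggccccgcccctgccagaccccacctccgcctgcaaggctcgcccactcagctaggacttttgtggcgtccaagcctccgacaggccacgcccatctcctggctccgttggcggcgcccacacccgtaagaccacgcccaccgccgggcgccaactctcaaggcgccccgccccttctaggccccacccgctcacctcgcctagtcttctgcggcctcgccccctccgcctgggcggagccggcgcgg

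The Rab20 match begins 46 bases before the gene start, and the Rab3d window holds none of the motifs searched. Over the table, which matched 48 of the 59 Rab genes with 60 start windows, CACGTG was in 6 Rab windows (Rab5a, Rab20, Rab21, Rab23, Rab24 and Rab27a) and in 7.15% of all 32851 windows. The longer TCACGTGA, which contains CACGTG and resembles the element of lysosomal genes, was in 3 Rab windows, those of Rab5a, Rab21 and Rab24, and in 0.974% of all. TGANTCA, a sequence read by AP-1 factors, was in those of Rab15, Rab34 and Rab39b and in 7.81% of all. Each motif reads alike on both strands. The 60 bases around TCACGTGA are shown for the 3 genes, at chr17:53479112-53479171 on the plus strand for Rab5a, chr10:115315589-115315648 on the minus strand for Rab21 and chr13:55321946-55322005 on the minus strand for Rab24, with the match in capitals.
Rab5a: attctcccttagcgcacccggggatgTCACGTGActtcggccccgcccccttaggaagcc
Rab21: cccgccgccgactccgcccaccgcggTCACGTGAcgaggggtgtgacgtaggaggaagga
Rab24: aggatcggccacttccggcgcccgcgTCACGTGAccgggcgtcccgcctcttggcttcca
The match begins 96 bases before the gene start in Rab5a, 31 before it in Rab21 and at base 2 of the gene in Rab24. The common 12 h changes of these genes were -0.09, 0.22 and 0.13 on the log2 scale, none of which passed the test. A match describes these letters only.

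Beyond Rab20, the common 12 h changes of the family ran from -0.52 (Rab30) to 0.49 (Rab43). In limma 0 of 50 Rab genes passed for the common change at 12 h, beside 0.00738% of all genes (1 gene), and 6 were under an unadjusted p of 0.05, beside 8.21% of all genes. With the second summary these counts were 0, beside 0.00819%, and 8, beside 13.2%. Of these 6, 4 stood above zero, Rab20, Rab43 (0.49), Rab7 (0.25) and Rab31 (0.20), and 2 below, Rab11a (-0.32) and Rab28 (-0.26). Other probe sets, each fitted by itself, stood at 0.01 for Rab11a and at -0.04 and 0.27 for Rab43. Those of Rab28 and Rab31 stood at -0.35 and 0.26. Rab7 went from 1643 at 0 h to 2018 at 12 h in R388A/Y527F, and from 2026 to 2323 in D386N/Y527F, a common change of 0.25 (SE 0.09, adjusted p = 0.523, limma) and 0.28 in the second summary (adjusted p = 0.17). Its second probe set stood at 0.23, and Rab9, which returns receptors from late endosomes to the Golgi, stood at 0.22 (adjusted p = 0.637, limma). Rab43, a Rab of the Golgi, went from 143.7 to 185.3 in R388A/Y527F, and from 185.7 to 282.4 in D386N/Y527F, but its common change was 0.12 in the second summary. Rab28, known for its part in photoreceptor cilia, went from 616.1 to 575.4 in R388A/Y527F, and from 609.1 to 455.3 in D386N/Y527F, with -0.29 in the second summary. Rab30 (-0.52), Rab3a (-0.51) and Rab40b (-0.38) were the lowest. In the second summary Rab3a stood at -0.10, Rab30 at -0.52 (adjusted p = 0.235, limma) and Rab40b at -0.54 (adjusted p = 0.231, limma).

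By the 2-fold rule Rab20 in R388A/Y527F was the 1 Rab gene at 12 h, beside 1.95% of all genes there and 2.31% in D386N/Y527F, where 0 Rab genes reached it. The second summary gave the same counts of 1 and 0, beside 0.147% and 0.354%. In both summaries together 0.0538% of all genes passed in R388A/Y527F, 6 genes with Rab20 among them, and 0.153% in D386N/Y527F. Of 49 Rab genes with a 12 h change in both lines, 30 went the same way (61.2%, against 55.4% of all genes), 12 higher and 18 lower. In the second summary 34 of 47 did (72.3%, against 60.5%). Each line has its own 0 h array, so the changes share no sample.

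**Figure D4:**
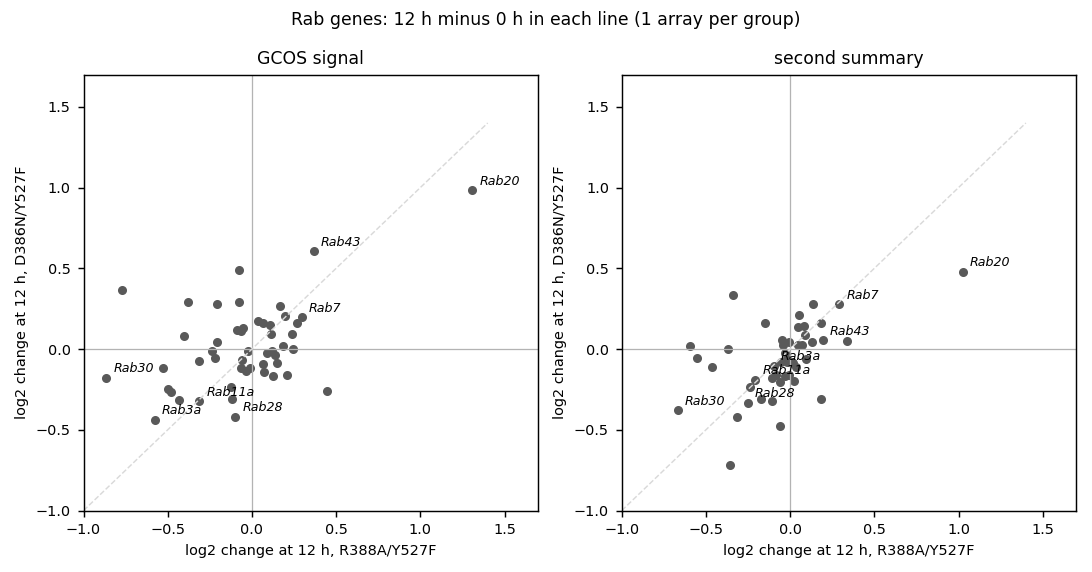
Log2 change from 0 h to 12 h of imidazole in R388A/Y527F (x axis) and D386N/Y527F (y axis), with 1 point per tested Rab gene, for the GCOS signal (left) and the second summary (right). Each change is between 2 single arrays, so there are no error bars, and the dashed line marks equal changes. Rab20 stands apart at the upper right, at 1.31 and 0.98 on the left and 1.02 and 0.48 on the right.

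Whether the response to imidazole differed between the lines bears on the rescued kinase. In the interaction model of limma 0 of 50 Rab genes passed, as did 0 of all genes (0%), and 1 was under an unadjusted p of 0.05, beside 3.36% of all genes. For the second summary the counts were 0 (0% of all genes) and 0, beside 3.46%. That 1 gene was Rab37, a Rab of secretory granules, whose signals straddled the floor (34.8, 13.8 and 9.3 in R388A/Y527F, against 14.7, 21.6 and 26.3 in D386N/Y527F), at -0.99 (adjusted p = 1, limma). Rab5c gave 299.2, 203.1 and 256.7 against 250.3, 399.0 and 240.6, a difference of -0.70 (SE 0.46, adjusted p = 1, limma) that came from the 1 h arrays. For Rab20 the difference of responses was 0.08 in the GCOS signal, where the R388A/Y527F arrays at 0 h and 1 h were raised to the floor. In the second summary it was 0.64 (adjusted p = 0.999, limma). In that model both treated times of a line are taken as replicates, so a response at 12 h alone enters the error.

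The other genes of the Rab cycle were read from lists chosen beside the family, and their counts stand beside 20.1% of all genes, 9.24% higher and 10.9% lower. For the line difference in limma, 1 of 7 genes of prenylation and GDP dissociation inhibition was higher and 0 lower in R388A/Y527F. The higher one was Chml, a Rab escort protein, at 0.56 (adjusted p = 0.0324). Of 32 exchange factor genes 2 were higher and 5 lower, with Rin1, a Rab5 exchange factor that binds Ras, at 0.71 (adjusted p = 0.0045), and its relative Rin3 at -1.10 (adjusted p = 0.00908). Rab3il1, an exchange factor that acts on Rab3a and Rab8, gave -0.89 (SE 0.12, adjusted p = 0.00147), and Dennd5b -0.68 (adjusted p = 0.0165). When probe sets were averaged, Chml (0.53), Rin1 (0.37), Rab3il1 (-0.36) and Dennd5b (-0.30) did not pass, and Rin3 (-0.14) did not with the higher floor.

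Of 29 GTPase-activating protein genes 2 were higher and 5 lower in limma, among them Sgsm2 (-1.34, adjusted p = 0.00598), Tbc1d8 (-0.78), Sgsm3 (-0.57) and Tbc1d9 (0.71). In the second summary Sgsm2 differed by -0.52 and Sgsm3 by -0.35, both past the threshold. Sgsm3 did not pass under quantile normalization, nor did Sgsm3 or Tbc1d9 without the variance trend. Of 46 effector genes 3 were higher and 9 lower, beside 9.24% and 10.9% of all genes. Mical1, an actin-oxidising Rab effector, stood at -0.85 (SE 0.15, adjusted p = 0.0045), Micall2, an effector of Rab13 and Rab8, at -0.80 (adjusted p = 0.00158), Exoc6, the exocyst subunit that binds Rab11, at -0.79 (adjusted p = 0.000863) and Bicd2, a dynein adaptor that binds Rab6, at -0.58 (adjusted p = 0.00113). The median log2 difference was 0.06, -0.12, -0.06 and -0.06 for the 4 lists, beside -0.02 for all genes. None of these lists had a gene past the threshold for 1 h, 12 h or the interaction in limma, where 0, 1 and 0 of all genes passed.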

How the data were processed

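Total RNA of 6 samples was labelled with 1 round of amplification and hybridised to Affymetrix Murine Genome 430 2.0 arrays, per the labels' protocols. The deposited values are linear intensities from GCOS 1.3, per the submitters' processing notes, and their mean after trimming 2% at each end was 150 on every array. The signal algorithm and the method of the second deposited summary are not given in the sources used here. Scaling to 1 level hides any change in total RNA. The deposited tables hold no detection calls, so a floor at the 40th percentile stood in for them. Precision is limited by 1 array per group.

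The platform annotation gave 1 gene symbol for 34945 of the 45101 probe sets, several for 932 and none for 9160, and 64 more are array controls. A RefSeq gene table matched 34741 of the named probe sets by Entrez identifier and changed 0 symbols. In the older annotation of the deposited workbook, 30 of the 132 Rab probe sets had another symbol or none. A gene took 1 probe set, by suffix (_at, then _a_at, _s_at and _x_at) and then by mean signal.

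Fits used limma 3.58.1 in R 4.3.3 with a variance trend and Benjamini-Hochberg adjustment at 0.05 over the 13541 genes that exceeded the floor on 2 or more arrays. A model of line and time, and one of line, treatment and their interaction, each left 2 residual degrees of freedom. The fit was tested on simulated data with independent noise on every array. Such data cannot show whether the times may stand in for replicates. Named genes were the Rab genes past the threshold, those 2-fold different in both summaries, the 3 highest and 3 lowest per comparison, and up to 4 members of each other list. Members of the family named outside this rule were chosen after their values were seen. The members and lists were chosen with earlier results of these data known. Alternatives were the second summary, quantile normalization, a floor at the 60th percentile, a pseudocount of 16 in place of the floor, averaging or separate fitting of probe sets, no trend, no filter, leaving out times or arrays, and, chosen after seeing the data, the brightest of the _at and _a_at probe sets.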

Additional observations from a re-analysis of the deposited data

How the results depend on the processing

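For the difference between the lines, 11 Rab genes passed the test, beside 20.1% of all genes. Quantile normalization gave 13, beside 20.9%, the higher floor 13, beside 30.7%, and the pseudocount 11, beside 21.7%. Averaged probe sets gave 9, beside 14.7%, and the brightest probe set 12, beside 20.9%. Separately fitted probe sets gave a count within 9 to 13, where 16.4% of all probe sets passed. The second summary gave 20, beside 33.7% of all genes, and no trend gave 4, beside 7.24%. Leaving out 1 time gave 0 to 3, beside 1.96% to 11.1%. Without a filter, 3681 genes at the floor on all arrays entered with no spread at all, so that fit called 0 of all genes and 0 Rab genes for line and says nothing about the Rab genes, and its interaction then called 2 Rab genes, Rab19 and Rab44, beside 0 in the fit reported. The counts for 1 h, 12 h and the interaction were otherwise 0 under every alternative run. By the 2-fold rule 5 distinct Rab genes were different in at least 1 comparison, and 3 with the higher floor. The count between the lines at 0 h moved from 1, beside 5.45% of all genes, to 4 in the second summary, beside 4.32%. It was 0 with the higher floor and 2 with averaged probe sets. At 1 h it moved from 4 to 1 with averaged probe sets, and at 12 h from 1 to 2 with the pseudocount and 0 with the brightest probe set. For 12 h in R388A/Y527F it moved from 1 to 0 with the higher floor and 2 with the pseudocount, and for 1 h in D386N/Y527F from 0 to 2 with the pseudocount. The cause of the other moves was not tested. Outside the second summary, the share of all genes past 2-fold was not computed for these alternatives. The moves are therefore not read as particular to the Rab genes. Over the genes named by the rule and all alternatives, those that leave out arrays included, 460 values kept their call and 126 missed a threshold they had passed. A further 2 passed one they had missed and 6 moved across 2-fold. The 460 include genes that had not passed in the first place, as for 1 h, 12 h and the interaction, so they do not measure how stable the passing genes were. No gene changed sign under any alternative run in a comparison for which the rule named it. Other values given in the text were not followed through the alternatives. Among them, Rab5b stood at 0.08 between the lines and at -0.13 in the second summary. The fit of line and time already compares the lines within each time, and no block by replicate number could be added with 1 array per group.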
